A study of Rattus norvegicus with 9 samples.

Results

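The Slc25 genes encode the mitochondrial carriers, the transport proteins of the inner mitochondrial membrane. Members were the genes whose RefSeq symbol starts with Slc25a and whose expected count, the read number estimated per gene, reached 10 in at least 3 of the 9 libraries. Of 13752 gene IDs listed in any library, 10180 reached that minimum. Among the 38 Slc25a symbols listed, 33 were members. Slc25a27 entered with 4 libraries at the minimum, and Slc25a37 and Slc25a45 with 8 each. Slc25a40 stayed outside with 2 such libraries and Slc25a18 with 1, while Slc25a2, Slc25a21 and Slc25a53 had 0. The rule uses no measured difference between groups, though it was chosen with earlier results of these data known.

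Messenger RNA of the gastrocnemius, which forms much of the calf and depends on the sciatic nerve, was sequenced on a BGISEQ-500 in 3 groups of 3 libraries. All rats were male and 8 weeks old. SHAM rats had a sham operation, and DN rats had a sciatic nerve injury. DN-SM rats had the same injury and received electrical stimulation each day for 4 weeks, starting on the day of surgery, at 25 V, 1 mA and 2 Hz with a pulse width of 300 ms. The other groups also went under anaesthesia with electrodes on the skin, but no current was passed. The strain, the kind of nerve injury and the time of collection were not given in the sources used here. The labels do not say whether each library came from a separate animal, so p-values measure the spread between these libraries, which may be technical.

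Carriers of this family pass nucleotides, phosphate, keto acids, amino acids, fatty acyl groups and cofactors across a membrane that is otherwise closed to them. Most work as exchangers, and ADP for ATP exchange with phosphate entry supplies the ATP synthase. In skeletal muscle the family also carries the malate exchange of the malate-aspartate shuttle and the acylcarnitine entry that precedes fatty acid oxidation. Some members depart from the pattern: Slc25a17 is a carrier of peroxisomes, and Slc25a46 sits in the outer mitochondrial membrane, where it takes part in fusion and fission.

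Library totals ranged from 7926445 to 8893843 expected counts, and 12232 to 12484 genes were listed per library. The members' expected counts ran from 5 for Slc25a27 in its lowest library to 30114 for Slc25a4 in its highest. All 33 members passed the filter on low counts used for the tests. For 28 of them the expected counts were whole numbers in every library (within 0.005), while Slc25a16, Slc25a26, Slc25a44, Slc25a46 and Slc25a51 had fractional counts, as RSEM gives where reads match more than 1 gene, so their values are less certain. The 8 slow fibre markers tested summed to 4399 to 16300 FPKM (the authors' level, scaled to transcript length and library size) in the SHAM libraries, 16090 to 22110 in those of DN and 7828 to 18220 in those of DN-SM. The 8 fast fibre markers summed to 52590 to 76550, 47890 to 56400 and 58140 to 68770 FPKM. In DN against SHAM, 4 of 6 endothelial and 2 of 6 Schwann cell markers were higher at an edgeR adjusted p under 0.05, and in DN-SM against SHAM 1 of the 6 endothelial markers. Of all genes tested, 4.26% and 0.839% passed in these comparisons in either direction. None of the fibroblast, macrophage, adipocyte, erythroid or fibre type markers passed in edgeR in any comparison. Per list, 0 to 3 had an unadjusted p under 0.05, as had 12.8% to 22.3% of all genes tested. No marker found was at 0 in all libraries. DESeq2 called Myh4, Atp2a1 and Fabp4 in DN against SHAM and Col1a2 and Fabp4 in DN-SM against SHAM among the lists without an edgeR call. In bulk tissue, fewer cells of a type and less RNA per cell cannot be told apart.

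Levels across the family spanned from 2451 FPKM for Slc25a4 to 0.372 for Slc25a27 as means over the 9 libraries. Of the 33 members, 3 had a mean above 100 FPKM, 11 lay between 10 and 100, 17 between 1 and 10 and 2 below 1. Slc25a4, which exchanges ADP for ATP and is the adenine nucleotide carrier typical of heart and skeletal muscle, held 58.8% of the summed family FPKM. Slc25a3, the phosphate carrier, held 22.7%, and Slc25a11, which exchanges oxoglutarate for malate, 8.89%. These 3 carriers made up 90.4% of the sum, which covers the 33 members only and no carrier that was not analysed here. The family sum was 4045 ± 356.6 FPKM in the SHAM libraries, 4104 ± 416.5 in those of DN and 4348 ± 28.6 in those of DN-SM (SD, n = 3). The range of SHAM, 3754 to 4443, covered the ranges of DN-SM and most of that of DN. Summed expected counts of the members were 0.486% to 0.592% of a library.

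**Figure D1:**
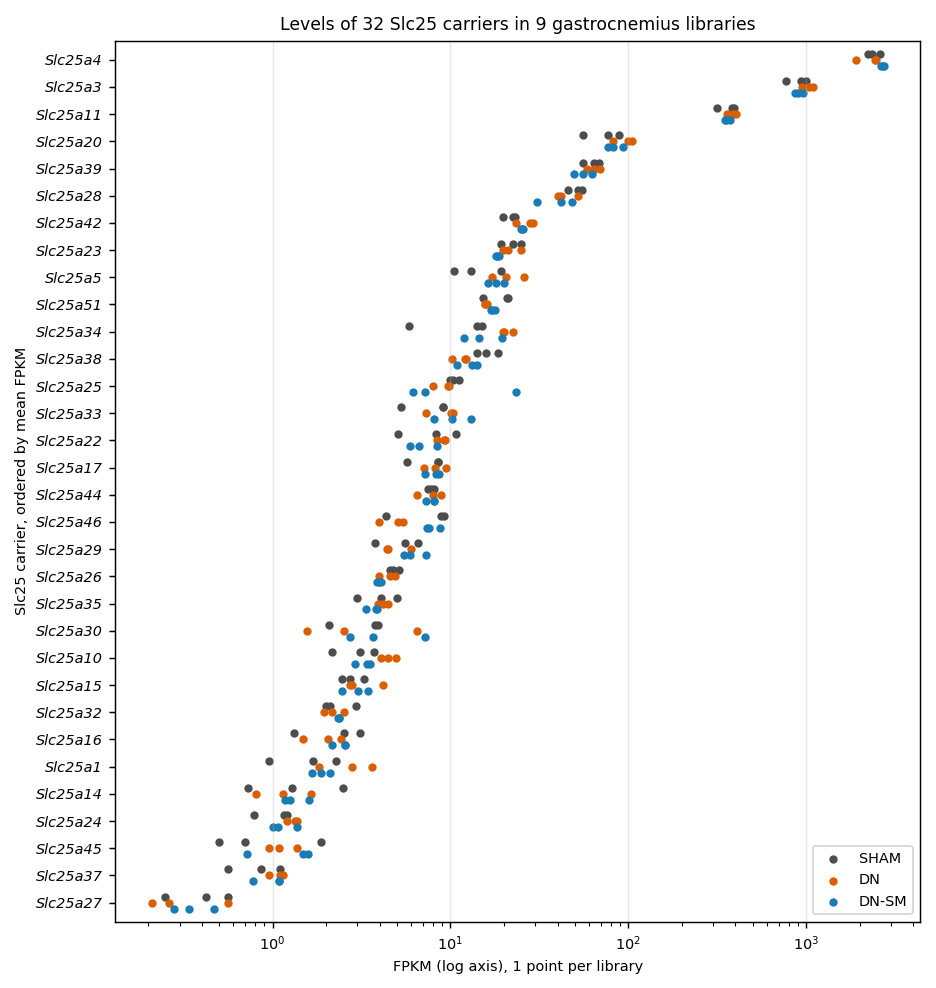
FPKM of 32 mitochondrial carrier genes in each of the 9 libraries on a log axis, with points coloured by group and genes ordered by their mean. Slc25a4, Slc25a3 and Slc25a11 stand above 100 FPKM in every library, and the 3 groups overlap or lie close together for most genes.

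Promoter windows were available in RefSeq (build GRCr8; 250 bases before to 50 after the annotated start) for 27 of the 33 members. They were searched on both strands for 3 motifs of factors that act on genes of mitochondrial proteins. CCGGAAG, a core bound by GABPA and other ETS factors, was found in the windows of 6 of 27 members (22.2%) and in 8.75% of all 33469 windows. Shares of members are per gene and those of all windows per window, including genes not tested here, so the sets are not alike. The NRF1 motif was in the window of 1 member, Slc25a51 (3.70%, against 4.26% of all windows). AAGGTCA, the site of ERR receptors, was also in 1, that of Slc25a34 (3.70%, against 4.61%). CCGGAAG and AAGGTCA share no stretch longer than AAG, and neither contains the other. The stretches below show the CCGGAAG letters in the leading carriers Slc25a4 and Slc25a3 and in Slc25a20 and Slc25a38, and the AAGGTCA letters in Slc25a34, as examples chosen after the values were seen. Each is printed 5′ to 3′ on the strand of the gene, with the motif or its reverse complement in capitals. A match describes letters and is not a site shown to be bound.
Slc25a4, chr16:52805335-52805391, plus strand: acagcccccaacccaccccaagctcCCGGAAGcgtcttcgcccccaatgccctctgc
Slc25a3, chr7:27506725-27506781, minus strand: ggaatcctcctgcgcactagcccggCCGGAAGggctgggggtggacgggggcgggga
Slc25a20, chr8:118243479-118243535, plus strand: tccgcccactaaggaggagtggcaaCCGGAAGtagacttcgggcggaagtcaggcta
Slc25a38, chr8:128713110-128713166, plus strand: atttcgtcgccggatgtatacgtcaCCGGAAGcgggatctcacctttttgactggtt
Slc25a34, chr5:159220013-159220069, minus strand: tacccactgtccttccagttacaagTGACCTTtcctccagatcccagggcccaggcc
The match begins 161 bases before the start in Slc25a4, 129 in Slc25a3, 69 in Slc25a20, 45 in Slc25a38 and 152 in Slc25a34.

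The first comparison, DN against SHAM, addressed the effect of sciatic nerve injury without stimulation. No carrier passed: 0 of 33 members had an edgeR adjusted p under 0.05, where 4.26% of all genes tested did. An unadjusted p under 0.05 was reached by 7 members, 21.2% of the family, and by 22.3% of all genes tested. These were Slc25a38, Slc25a46, Slc25a5, Slc25a34, Slc25a10, Slc25a51 and Slc25a20. The DESeq2 Wald test called 1 member, Slc25a38, where it called 7.6% of all genes. Log2 fold changes (DN over SHAM) ranged from -0.71 to 0.78, with 17 members above 0 and 16 below. Their median was 0.01, beside -0.01 for all genes tested, and the median size without sign was 0.18, beside 0.24. For 24 of 33 members the 95% interval of the fold change lay within 2-fold in either direction. The FPKM of the 3 DN libraries did not overlap those of SHAM for 5 members (15.2%, against 22.8% of all genes tested). Slc25a42, Slc25a34 and Slc25a10 were the members above, and Slc25a38 and Slc25a25 those below (15.9% and 6.91% of all genes tested). On counts scaled with TMM factors, without length, 5 members stood apart, not all the same ones, beside 24.3% of all genes.

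The contrast between DN-SM and DN addressed daily stimulation of the injured muscle. Again 0 of 33 members had an edgeR adjusted p under 0.05, beside 0.00987% of all genes tested, which is 1 gene. An unadjusted p under 0.05 was reached by 2 members, Slc25a46 and Slc25a4, 6.06% of the family against 17.6% of all genes. DESeq2 called 1 member, Slc25a46, and 2.19% of all genes. Fold changes (DN-SM over DN) ranged from -0.45 to 0.82 on the log2 scale, 17 above 0 and 16 below, and 26 of 33 intervals lay within 2-fold. Groups did not overlap in FPKM for 8 members (24.2%, against 32.7% of all genes). Slc25a4, Slc25a51 and Slc25a46 were higher in all 3 DN-SM libraries than in any DN library, and 5 members, among them Slc25a23, Slc25a34, Slc25a35 and Slc25a10, were lower (11.4% and 21.3% of all genes). On TMM-scaled counts 8 members stood apart, not all the same ones, beside 30.3% of all genes.

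DN-SM against SHAM set the injured and stimulated muscle beside the sham-operated one. The edgeR test called 0 of 33 members, beside 0.839% of all genes, and DESeq2 also called 0 (2.63% of all genes). No member had an unadjusted p under 0.05, which 12.8% of all genes tested had. Log2 fold changes ran from -0.33 to 0.51, with 22 above 0 and 11 below and a median of 0.11, beside 0.015 for all genes tested. Intervals within 2-fold held for 28 of 33 members. Without overlap in FPKM were 4 members (12.1%, against 16.8% of all genes), Slc25a4 and Slc25a42 higher and Slc25a23 and Slc25a26 lower in DN-SM (7.49% and 9.34% of all genes). On TMM-scaled counts there were 3, beside 18.3% of all genes. The comparisons share libraries, so values for a gene in different comparisons are not independent.

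**Figure D2:**
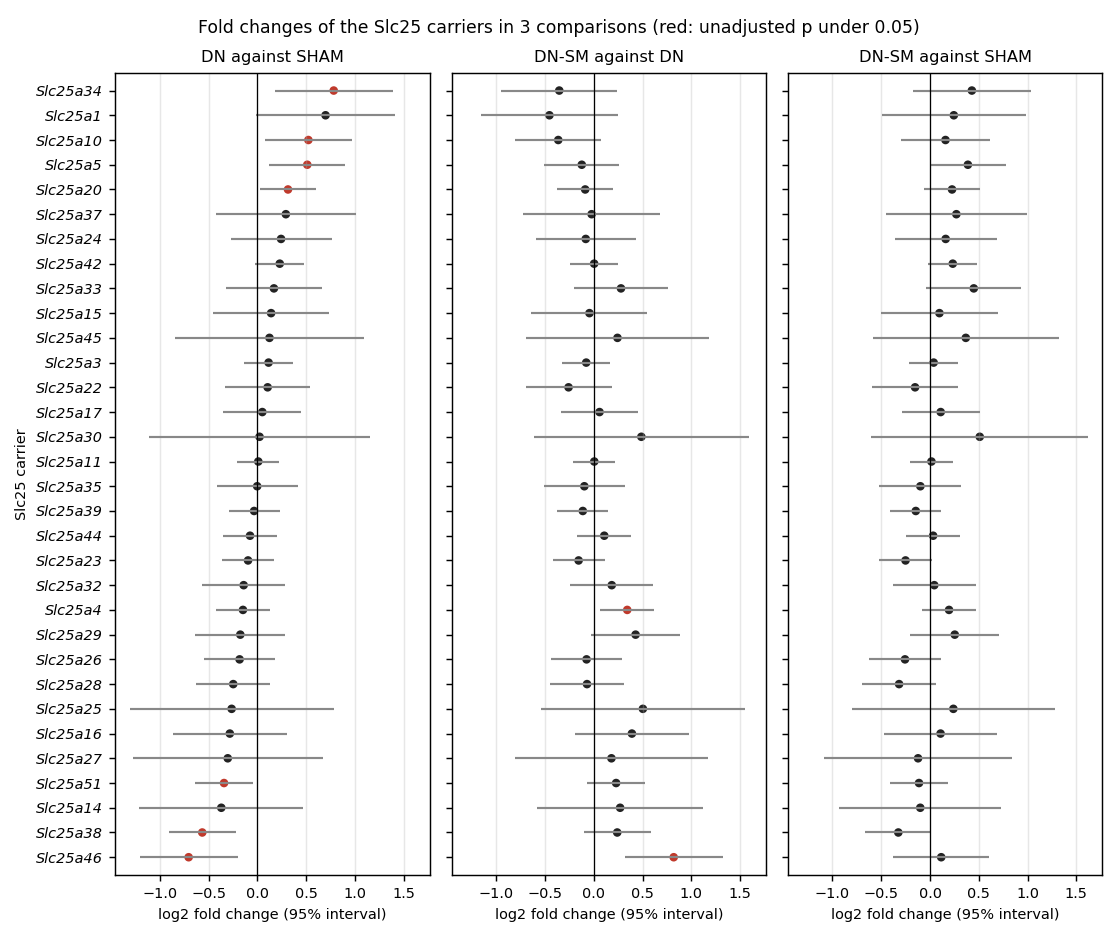
Log2 fold change of 32 carriers from the edgeR fit of all 9 libraries in each of the 3 comparisons; bars are 95% intervals, red points have an unadjusted p under 0.05, and genes are ordered by their value in DN against SHAM. Points lie between -0.71 and 0.82, and no member passed an adjusted p of 0.05.

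The adenine nucleotide and phosphate carriers, 6 members, had a median log2 fold change of 0.01 in DN against SHAM, -0.08 in DN-SM against DN and 0.18 in DN-SM against SHAM. Slc25a4 was at 2605, 2335 and 2230 FPKM in SHAM replicates 1 to 3, at 1908, 2461 and 2446 in DN, and at 2731, 2715 and 2625 in DN-SM. All DN-SM libraries lay above all others, while DN replicate 1 was the lowest of the 9. Between DN-SM and DN its log2 fold change was 0.34 (SE 0.13, 95% interval 0.07 to 0.62, edgeR adjusted p = 0.211), which did not pass. In DN against SHAM it was -0.15 (interval -0.43 to 0.13, edgeR adjusted p = 0.534) and in DN-SM against SHAM 0.19 (adjusted p = 0.561).

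Slc25a5 encodes the adenine nucleotide carrier found widely outside striated muscle, a close relative of Slc25a4. Its levels were 19.2, 10.5 and 13.1 FPKM in the SHAM libraries, 17.2, 20.5 and 25.9 in those of DN and 16.2, 20.0 and 18.1 in those of DN-SM. SHAM replicate 1 overlapped both other groups, and the other SHAM libraries lay below all of them. For Slc25a5 the log2 fold change was 0.51 in DN against SHAM (SE 0.18, interval 0.12 to 0.90, edgeR adjusted p = 0.121) and 0.39 in DN-SM against SHAM (adjusted p = 0.397). Without SHAM replicate 2 the latter was 0.24. Slc25a5 had the smallest unadjusted p of the family in DN-SM against SHAM. The DN-SM against DN value was -0.12 (edgeR adjusted p = 0.744). On the per length scale the mean of Slc25a5 over all libraries was 17.8 FPKM, beside 2451 for Slc25a4.

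Slc25a3 carries phosphate into the matrix. It stood at 997, 766 and 941 FPKM in the SHAM libraries, 948, 1037 and 1087 in those of DN and 868, 894 and 961 in those of DN-SM. The groups overlapped, with SHAM replicate 2 lowest. Its log2 fold change in DN against SHAM was 0.11 (interval -0.13 to 0.36, edgeR adjusted p = 0.601), and in DN-SM against DN it was -0.08. Both intervals lay well within 2-fold.

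The calcium-regulated carriers of ATP-Mg and phosphate were much lower. Slc25a23 was at 25.1, 19.3 and 22.5 FPKM in the SHAM libraries, 21.0, 19.6 and 25.1 in those of DN and 18.7, 18.4 and 18.0 in those of DN-SM. All DN-SM libraries lay below all others by this measure, though the gap to DN closed when counts were scaled with TMM factors. The log2 fold change was -0.25 in DN-SM against SHAM (edgeR adjusted p = 0.42) and -0.16 in DN-SM against DN (adjusted p = 0.522). Slc25a25, another of these carriers, was at 11.2, 10.3 and 9.88 FPKM in the SHAM libraries, 9.68, 7.98 and 9.83 in those of DN and 6.13, 7.2 and 23.3 in those of DN-SM. DN-SM replicate 3 stood far above the other libraries and its companions below them. Its DN-SM against DN log2 fold change was 0.50 (interval -0.54 to 1.55, edgeR adjusted p = 0.588), and without DN-SM replicate 3 it was -0.36. Slc25a24, the remaining member, ranged from 0.79 to 1.38 FPKM.

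Dicarboxylate, keto acid and citrate carriers, 3 members, had a median log2 fold change of 0.52 in DN against SHAM, -0.36 in DN-SM against DN and 0.16 in DN-SM against SHAM. Each of these medians is the value of Slc25a10. Slc25a11, the abundant oxoglutarate and malate exchanger, was at 394, 315 and 382 FPKM in the SHAM libraries, 359, 388 and 405 in those of DN and 356, 351 and 375 in those of DN-SM. The groups overlapped throughout. Its log2 fold change in DN against SHAM was 0.01 (interval -0.21 to 0.23, edgeR adjusted p = 0.973), with a sign that turned when single libraries were left out.

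Slc25a10, which exchanges dicarboxylates such as malate and succinate for phosphate, was at 3.74, 2.17 and 3.11 FPKM in the SHAM libraries, 4.97, 4.08 and 4.44 in those of DN and 2.91, 3.38 and 3.54 in those of DN-SM. All DN libraries lay above all libraries of both other groups. For Slc25a10 the log2 fold change was 0.52 in DN against SHAM (SE 0.21, interval 0.08 to 0.97, edgeR adjusted p = 0.161) and -0.36 in DN-SM against DN (adjusted p = 0.364). Slc25a1, the citrate exporter that feeds fatty acid synthesis, was at 2.27, 0.96 and 1.68 FPKM in the SHAM libraries, 3.60, 2.78 and 1.82 in those of DN and 1.67, 1.87 and 2.11 in those of DN-SM. DN replicates 1 and 2 were above the rest, and DN replicate 3 was not. With 14 to 52 expected counts per library, its log2 fold change in DN against SHAM was 0.70 (interval -0.02 to 1.41, edgeR adjusted p = 0.235). It was 0.45 without SHAM replicate 2 and 0.40 without DN replicate 1. The 6 adipocyte markers summed to 79.3 to 103.1 FPKM in the SHAM libraries, 117.5 to 163.0 in those of DN and 105.1 to 133.3 in those of DN-SM, with every DN library above every SHAM library. Most of that sum was Fabp4, at means of 75.1, 111 and 108 FPKM in SHAM, DN and DN-SM. Adipoq, Plin1, Cidec and Cfd had higher means in DN than in SHAM, but lower means in DN-SM than in SHAM. None of the 5 adipocyte markers tested passed in edgeR, and no marker was at 0 in all libraries. The part of these markers in the result was not tested.

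Slc25a20, the acylcarnitine carrier of the fatty acid oxidation route, was at 88.7, 55.7 and 76.4 FPKM in the SHAM libraries, 82.3, 99.5 and 105 in those of DN and 76.6, 81.9 and 93.6 in those of DN-SM. SHAM replicate 2 was the lowest library, and SHAM replicate 1 overlapped DN in FPKM, though not on TMM-scaled counts, where DN lay above SHAM in every library. For Slc25a20 the log2 fold change was 0.31 in DN against SHAM (SE 0.13, edgeR adjusted p = 0.188) and 0.23 in DN-SM against SHAM (adjusted p = 0.51). Without SHAM replicate 2 they were 0.18 and 0.09.

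Amino acid carriers, 5 members, had a median log2 fold change of -0.08 in DN against SHAM and 0.11 in DN-SM against DN. Slc25a38 carries glycine into mitochondria for heme synthesis. It was at 15.8, 14.1 and 18.5 FPKM in the SHAM libraries, 10.2, 12.1 and 12.3 in those of DN and 13.2, 10.9 and 14.2 in those of DN-SM. DN lay below SHAM in every library, with DN-SM across the gap. This was the member with the smallest p in DN against SHAM: the log2 fold change was -0.57 (SE 0.16, interval -0.91 to -0.22, edgeR adjusted p = 0.0625). It missed the threshold in edgeR and passed it in DESeq2 (adjusted p = 0.029), but in no other alternative setting. Over all alternatives the DN against SHAM value ran from -0.65 to -0.43, with an adjusted p (edgeR, DESeq2 or limma) of up to 0.169. Between DN-SM and DN it was 0.24 (edgeR adjusted p = 0.435) and in DN-SM against SHAM -0.33 (adjusted p = 0.415).

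The erythroid markers found, 6 of 7 written, summed to 10670 to 18660 FPKM in the SHAM libraries, 5568 to 14180 in those of DN and 4197 to 18570 in those of DN-SM. These red cell ranges overlapped between the groups, and their part in the Slc25a38 values was not tested. Slc25a29, a carrier of basic amino acids, was at 5.53, 3.79 and 6.61 FPKM in the SHAM libraries, 4.41, 4.48 and 5.99 in those of DN and 5.94, 5.5 and 7.27 in those of DN-SM. Its groups overlapped in FPKM, while on TMM-scaled counts DN-SM lay above DN in every library, and it had the third smallest p in DN-SM against DN (log2 fold change 0.43, edgeR adjusted p = 0.306). The glutamate carrier Slc25a22 ranged from 5.09 to 10.7 FPKM, the ornithine carrier Slc25a15 from 2.45 to 4.20, and Slc25a44, a carrier of branched-chain amino acids, from 6.52 to 8.85.

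Carriers of cofactors, vitamins and nucleotides, 8 members, had medians of -0.05, 0.12 and 0.08 in the comparisons taken in the same order, with DN-SM against SHAM last. Slc25a42, a coenzyme A carrier, was at 23.1, 19.8 and 22.5 FPKM in the SHAM libraries, 29.2, 23.3 and 27.98 in those of DN and 24.9, 25.4 and 25.4 in those of DN-SM. SHAM lay below both other groups. Its log2 fold change was 0.23 both in DN against SHAM (edgeR adjusted p = 0.265) and in DN-SM against SHAM (edgeR adjusted p = 0.427), and DN overlapped SHAM once counts were scaled with TMM factors. The Slc25a42 value in DN against SHAM was 0.12 without DN replicate 1.

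Slc25a51, the carrier that brings NAD into mitochondria, was at 20.7, 21.0 and 15.2 FPKM in the SHAM libraries, 16.0, 15.6 and 15.6 in those of DN and 17.2, 16.9 and 17.7 in those of DN-SM. SHAM replicate 3 lay below DN and its companions lay above every other library. The log2 fold change was -0.34 in DN against SHAM (SE 0.14, edgeR adjusted p = 0.167), and -0.465 without SHAM replicate 3, where it passed (edgeR adjusted p = 0.0349). In that fit 11.5% of all genes passed. Without SHAM replicate 2 the DN against SHAM value was -0.21 (edgeR adjusted p = 0.479). The DN-SM against DN value was 0.23 (adjusted p = 0.393), with every DN-SM library above every DN library.

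Slc25a33, a pyrimidine nucleotide carrier, was at 9.11, 5.28 and 9.08 FPKM in the SHAM libraries, 7.29, 10.0 and 10.4 in those of DN and 8.07, 13.1 and 10.2 in those of DN-SM. The groups overlapped, and in DN-SM against SHAM the log2 fold change was 0.45 (edgeR adjusted p = 0.431). It was 0.26 without SHAM replicate 2 or DN-SM replicate 2. Its close relative Slc25a36 was not analysed here, nor were the aspartate and glutamate carriers Slc25a12 and Slc25a13. The S-adenosylmethionine carrier Slc25a26 ranged from 3.87 to 5.11 FPKM, the peroxisomal Slc25a17 from 5.70 to 9.42, the folate carrier Slc25a32 from 1.95 to 2.93 and Slc25a16 from 1.32 to 3.12.

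Iron and glutathione carriers, 3 members, had medians of -0.03, -0.07 and -0.15. Slc25a39, needed for mitochondrial glutathione import, was at 68.4, 55.7 and 64.2 FPKM in the SHAM libraries, 69.3, 59.0 and 64.5 in those of DN and 55.7, 62.3 and 49.3 in those of DN-SM, with the groups overlapping (DN-SM against SHAM, log2 fold change -0.15, edgeR adjusted p = 0.652). Slc25a28, or mitoferrin 2, the iron carrier of most tissues, was at 54.8, 51.8 and 45.8 FPKM in the SHAM libraries, 52.1, 41.8 and 40.4 in those of DN and 41.7, 30.5 and 48.2 in those of DN-SM. DN-SM replicate 2 was lowest, and the groups overlapped. Slc25a28 had a log2 fold change of -0.25 in DN against SHAM (edgeR adjusted p = 0.431) and -0.32 in DN-SM against SHAM (adjusted p = 0.481).

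Slc25a37, or mitoferrin 1, the iron carrier of developing red cells, was at 1.10, 0.86 and 0.56 FPKM in the SHAM libraries, 1.15, 0.96 and 1.10 in those of DN and 1.09, 1.08 and 0.78 in those of DN-SM. SHAM replicate 3 was lowest and the groups overlapped, and with at most 16 counts in a library the log2 fold change in DN against SHAM had a wide interval (0.29, -0.42 to 1.01, edgeR adjusted p = 0.651). Per length, Slc25a28 averaged 45.2 FPKM and Slc25a37 0.964.

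Slc25a46 had the smallest p of the family in DN-SM against DN and the second smallest in DN against SHAM. It was at 9.17, 8.88 and 4.33 FPKM in the SHAM libraries, 3.95, 5.04 and 5.41 in those of DN and 7.4, 7.58 and 8.71 in those of DN-SM. DN-SM lay above DN in every library. In SHAM, replicates 1 and 2 lay above all DN-SM libraries, and replicate 3 lay within the range of DN. The log2 fold change was 0.82 in DN-SM against DN (SE 0.23, interval 0.32 to 1.32, edgeR adjusted p = 0.155) and did not pass.

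The Slc25a46 result turned on the setting. Its DN-SM against DN value passed in the fit of those 2 groups alone (edgeR adjusted p = 0.00686, where 7.18% of all genes passed) and in DESeq2 (adjusted p = 0.0487). It also passed in edgeR without SHAM replicate 2 (adjusted p = 0.0455, 3.3% of all genes) and without SHAM replicate 3 (adjusted p = 0.0122, 4.04% of all genes), with log2 fold changes of 0.81 to 0.82 in all 4. The other 16 alternative settings called no carrier in DN-SM against DN. Over all alternatives the value ran from 0.62 to 0.87, with an adjusted p (edgeR, DESeq2 or limma) of up to 0.373. In DN against SHAM the log2 fold change was -0.71 (SE 0.23, interval -1.21 to -0.20, edgeR adjusted p = 0.102). Without SHAM replicate 3 it was -0.97 (edgeR adjusted p = 0.00399), where 11.5% of all genes passed. Over all alternatives the DN against SHAM value ran from -0.97 to -0.49, with an adjusted p (edgeR, DESeq2 or limma) of up to 0.323. In DN-SM against SHAM it was 0.11 (edgeR adjusted p = 0.876), and -0.14 without SHAM replicate 3. Slc25a46 is among the members with fractional counts, at 102 to 230 expected counts per library.

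Carriers with no substrate assigned here were Slc25a34, Slc25a35 and Slc25a45. Slc25a34 was at 15.0, 5.82 and 14.1 FPKM in the SHAM libraries, 20.1, 19.8 and 22.6 in those of DN and 11.9, 14.4 and 19.5 in those of DN-SM. All DN libraries lay above all others in FPKM, though not above all DN-SM libraries on TMM-scaled counts, and SHAM replicate 2 was far below the rest. The log2 fold change was 0.78 in DN against SHAM (SE 0.27, interval 0.18 to 1.39, edgeR adjusted p = 0.128), 0.43 in DN-SM against SHAM (adjusted p = 0.558) and -0.35 in DN-SM against DN (adjusted p = 0.509). Without SHAM replicate 2 the first was 0.48 and the second 0.13. Slc25a35 ranged from 2.97 to 5.01 FPKM and Slc25a45 from 0.50 to 1.88. The relatives of the uncoupling proteins were low, Slc25a30 at 1.57 to 7.22 FPKM, Slc25a14 at 0.73 to 2.49 and Slc25a27 at 0.21 to 0.56.

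**Figure D3:**
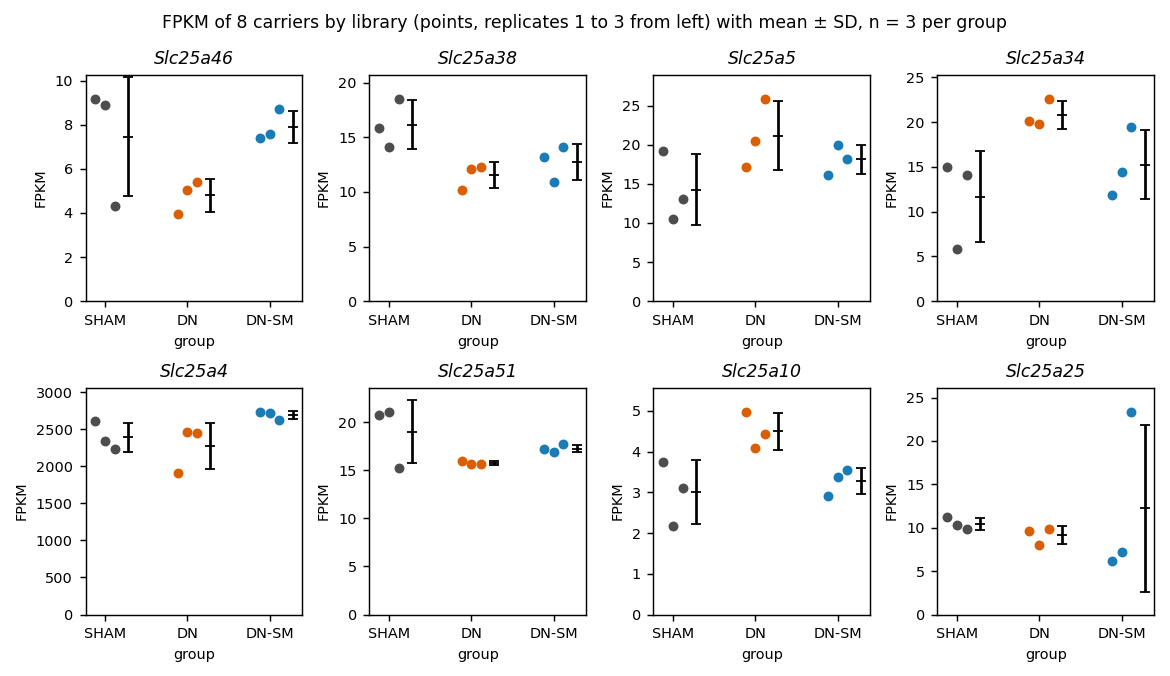
FPKM in each library of 8 carriers (Slc25a46, Slc25a38, Slc25a5, Slc25a34, Slc25a4, Slc25a51, Slc25a10 and Slc25a25) in SHAM, DN and DN-SM, with replicates 1 to 3 from left and the mean ± SD (n = 3) beside them. SHAM replicate 3 lies within DN for Slc25a46 at 4.33 FPKM, and DN-SM replicate 3 reaches 23.3 FPKM for Slc25a25.

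Likeness between carriers was read across libraries and groups together. Over the 9 libraries, the median Pearson correlation of log2(FPKM + 1) among 528 pairs of members was 0.21, and 26 pairs were above 0.8. The most alike were Slc25a3 and Slc25a11 (0.96), Slc25a3 and Slc25a20 (0.95) and Slc25a20 and Slc25a34 (0.94). The least alike were Slc25a38 and Slc25a37 (-0.74), Slc25a28 and Slc25a33 (-0.70) and Slc25a51 and Slc25a34 (-0.66). These are descriptions over libraries that share depth, groups and scaling.

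SHAM replicate 2 was the lowest of the 9 libraries for 15 of the 33 members on TMM-scaled CPM (16 on FPKM). Its slow fibre marker sum was also the lowest, at 4399 FPKM beside 16300 and 10580 in SHAM replicates 1 and 3. Correlation with that sum was 0.94 for Slc25a3, 0.93 for Slc25a34, 0.91 for both Slc25a20 and Slc25a22, 0.88 for Slc25a10 and 0.87 for Slc25a11. For Slc25a4 it was -0.13, for Slc25a46 -0.37 and for Slc25a51 -0.44. The sum of the 12 genes of mitochondrial mass and biogenesis correlated as closely or more closely with most of them, at 0.97 for both Slc25a3 and Slc25a34, 0.96 for Slc25a20, 0.91 for both Slc25a10 and Slc25a11 and 0.88 for Slc25a22. Most of this 12-gene sum was Cox4i1, at means of 1129, 1438 and 1194 FPKM in SHAM, DN and DN-SM, so it describes that gene more than the list. The log2 fold change of Cox4i1 in DN against SHAM was 0.28, while the median of the list was -0.16. With the adipocyte marker sum, mostly Fabp4, Slc25a20 correlated at 0.89, Slc25a5 at 0.87 and Slc25a34 at 0.84. With the endothelial marker sum the same carriers correlated at 0.80, 0.87 and 0.75. The lists share the same libraries, and their part in the carrier values was not tested.

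**Figure D4:**
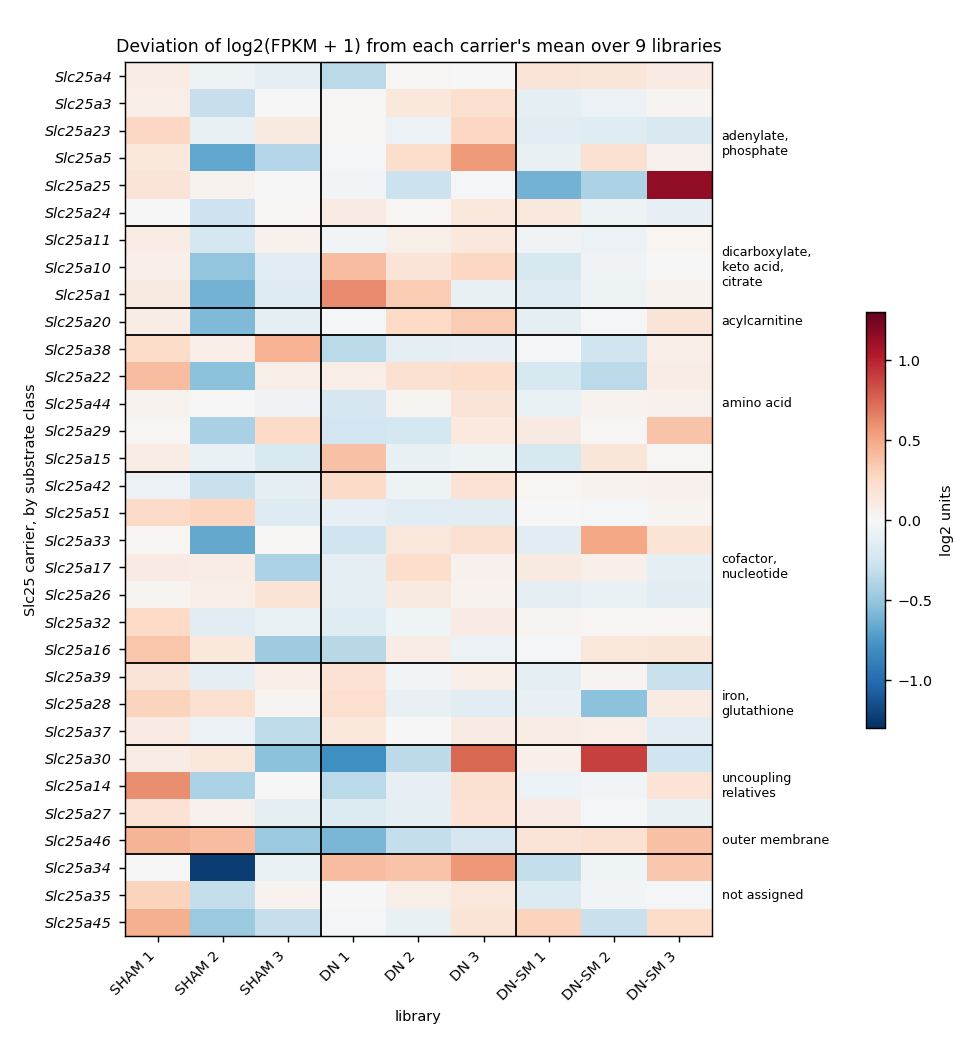
Deviation of 32 carriers, each from its own mean over the 9 libraries, as log2(FPKM + 1), with carriers in rows by substrate class and libraries in columns; red is above the mean and blue below. SHAM replicate 2 is blue for many carriers and darkest for Slc25a34, at 5.82 FPKM.

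Other transport proteins of mitochondria were read from a list of 27 genes outside the Slc25a symbols, of which 24 were tested. In DN against SHAM 0 were higher and 2 lower at an edgeR adjusted p under 0.05, where 4.26% of all genes tested passed. An unadjusted p under 0.05 was reached by 9, and by 22.3% of all genes tested. In DN-SM against DN 0 passed (0.00987% of all genes), with 5 at an unadjusted p under 0.05 (17.6%). In DN-SM against SHAM 1 was lower (0.839% of all genes passed), with 2 at an unadjusted p under 0.05 (12.8%). DESeq2 called 1, 0 and 1, each time Ucp3, and 7.6%, 2.19% and 2.63% of all genes. Ucp3, the muscle uncoupling protein and a member of the same carrier superfamily under another symbol, was at 34.6, 34.9 and 63.8 FPKM in the SHAM libraries, 11.9, 18.4 and 13.4 in those of DN and 7.99, 14.1 and 6.36 in those of DN-SM. All SHAM libraries lay above all others. Its log2 fold change was -1.70 in DN against SHAM (SE 0.36, edgeR adjusted p = 0.0379) and -2.22 in DN-SM against SHAM (SE 0.37, edgeR adjusted p = 0.039).

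Both Ucp3 calls lay near the threshold in the edgeR fit of all 9 libraries and were lost under several settings. Over the edgeR, DESeq2 and limma settings run, the adjusted p reached from 1.34e-05 to 0.148 in DN against SHAM. In DN-SM against SHAM it reached from 1.89e-09 to 0.161. The adjusted p in DN against SHAM was 0.0732 with no filter on low counts and 0.0595 to 0.148 with any 1 of SHAM replicate 2, the 3 DN libraries or DN-SM replicate 1 left out. The log2 fold change lay between -1.60 and -1.91 in those last fits. In DN-SM against SHAM the adjusted p was 0.0802 with no filter, 0.0897 with only the 2 groups fitted, and 0.0507 to 0.161 with any 1 of SHAM replicates 2 and 3, the 3 DN libraries or DN-SM replicates 1 and 3 left out, with log2 fold changes of -1.83 to -2.34 in those last fits. Between DN-SM and DN the Ucp3 log2 fold change was -0.52 (edgeR adjusted p = 0.475). Micu3, a regulator of the calcium uniporter, was at 1.08, 1.23 and 0.72 FPKM in SHAM and 0.31, 0.19 and 0.25 in DN (log2 fold change -2.05, edgeR adjusted p = 0.0262). This call was lost as well with any 1 of SHAM replicates 1 and 2 or the 3 DN libraries left out (edgeR adjusted p = 0.0532 to 0.108), and on log2(FPKM + 1), where the change was -0.68 (limma adjusted p = 0.0528). In the fits with 1 of those libraries left out its log2 fold change stayed between -1.83 and -2.26. Micu3 stood at 1.24, 0.68 and 0.81 FPKM in DN-SM, above DN in every library (DN-SM against DN, log2 fold change 1.93, edgeR adjusted p = 0.144). That difference passed with only the 2 groups fitted (edgeR adjusted p = 0.0259) and without SHAM replicate 2 (0.0344) or 3 (0.0315). In those fits 7.18%, 3.3% and 4.04% of all genes passed. Over all alternatives the difference ran from 0.60 to 2.14, with an adjusted p (edgeR, DESeq2 or limma) of up to 0.364.

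Ucp2, the widely expressed uncoupling protein, was at 22.5 ± 6.10 FPKM in the SHAM libraries, 22.0 ± 3.58 in those of DN and 22.8 ± 8.56 in those of DN-SM (SD, n = 3). Mtch1 and Mtch2, carrier homologues of the outer membrane, were at 60.1 ± 10.4 and 64.8 ± 1.81 FPKM in the SHAM libraries, 74.6 ± 1.96 and 59.8 ± 8.47 in those of DN and 57.9 ± 4.78 and 64.6 ± 4.39 in those of DN-SM. None of these passed in any comparison.

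Partners of the carriers were read in the same way. Of 14 tested genes for the import of carrier proteins, 8 partner enzymes of the malate-aspartate and glycerol phosphate shuttles, 10 of the carnitine shuttle, 15 of ATP synthase and creatine kinase and 12 of mitochondrial mass and biogenesis, 0 passed in edgeR in any comparison. In DN against SHAM an unadjusted p under 0.05 was reached by 4, 4, 0, 3 and 2 of them in that order. In DN-SM against DN it was reached by 3, 0, 1, 1 and 3, and in DN-SM against SHAM by 1, 0, 1, 0 and 1. Of all genes tested, 22.3%, 17.6% and 12.8% reached it in these comparisons, and 4.26%, 0.00987% and 0.839% passed in edgeR. DESeq2 called 1, Gpd1 of the glycerol phosphate shuttle, in DN against SHAM (7.6% of all genes) and 0 in the other comparisons. The median log2 fold changes of these lists in DN against SHAM were -0.09, 0.20, 0.10, 0.09 and -0.16. Ckmt2, the mitochondrial creatine kinase that takes up ATP exported by Slc25a4, was at 1778 ± 509 FPKM in the SHAM libraries, 2487 ± 314 in those of DN and 1920 ± 147 in those of DN-SM (DN against SHAM, log2 fold change 0.42, edgeR adjusted p = 0.165). Tomm70, the import receptor for carriers, was at 9.13 ± 3.07, 6.55 ± 0.49 and 9.76 ± 0.454 FPKM in the same order (DN-SM against DN, log2 fold change 0.67, edgeR adjusted p = 0.182). It passed with only the 2 groups fitted (edgeR adjusted p = 0.00915, 7.18% of all genes) and without SHAM replicate 3 (0.0189, 4.04% of all genes). Over all alternatives the Tomm70 value ran from 0.51 to 0.72, with an adjusted p (edgeR, DESeq2 or limma) of up to 0.382.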

How the data were processed

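Expected counts and FPKM per gene were deposited by the authors for each library. Per the file headers, the expected count is the estimate RSEM writes, not normalized, and the authors' FPKM is scaled to effective length and to the library's fragments. The tools were HISAT2, RSEM and GATK and the build rn6, per the submitters' processing notes; versions are not given in the sources used here. The files hold no positions, and promoter coordinates are those of RefSeq on GRCr8. Symbols came from the RefSeq table: 13649 IDs matched by gene ID, 7 by accession and 96 had none.

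Expected counts were rounded and tested with edgeR 4.0.16 in R 4.3.3 (quasi-likelihood F test, robust, two-sided, TMM factors of 0.922 to 1.10, filterByExpr with minimum count 10 and minimum total 15). A single model with group as its sole term held all 9 libraries and tested 10129 genes. P-values were adjusted by Benjamini-Hochberg over all of them, with a threshold of 0.05. The code was tested on simulated data. FPKM is not TMM-scaled, so libraries can overlap on one scale and not the other. No 2 libraries of the same group agreed within sampling noise. Intervals of 95% use the SE and the fit's degrees of freedom.

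Values in every library are given for members past the threshold (in the fit of all groups or of the 2 compared), the 8 of highest FPKM, the 3 of smallest p per comparison and, of the close pairs of the rule, Slc25a4 and Slc25a5, Slc25a28 and Slc25a37, and Slc25a33; Slc25a12, Slc25a13 and Slc25a36 were not analysed here. Other members named with such values (Slc25a1, Slc25a10, Slc25a25, Slc25a30, Slc25a34 and Slc25a51), and those of the other lists, were chosen after their values were seen. Members, lists and rule were chosen with earlier results of these data known. Protein sequences were not used here, and 1 member counted in the family is not reported by name. Alternatives were DESeq2 1.42.0, limma 3.58.1 on log2 FPKM, other scalings and filters, 2-group fits, a replicate block and leaving out each library.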

Additional observations from a re-analysis of the deposited data

How the results depend on the processing

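The count of carriers called in DN against SHAM was 0 in the fit of all libraries, 1 with DESeq2 and 0 to 2 with 1 library left out, the 2 being Slc25a46 and Slc25a51 without SHAM replicate 3. In DN-SM against DN it was 0, and 1 (Slc25a46) with DESeq2, with only the 2 groups compared, and without SHAM replicate 2 or 3, a range of 0 to 1 over the libraries left out. In DN-SM against SHAM it was 0 under all 20 alternatives run. Over the alternatives, the calls among all genes ran from 58 to 1184 (432 in the fit of all libraries), 0 to 713 (1) and 15 to 266 (85) in the 3 comparisons, so the background moved too. The cause of these moves was not tested. With 1 library left out, the log2 fold change turned sign for Slc25a11 in DN against SHAM (range -0.0527 to 0.0708), Slc25a25 in DN-SM against DN (-0.36 to 0.83) and Slc25a46 in DN-SM against SHAM (-0.14 to 0.32). No other carrier value printed changed sign. Of 37 carrier fold changes, none past the threshold, 23 moved by over 1.5 times when some 1 library was left out, 11 of them without SHAM replicate 2. Non-overlap counts, 5, 8 and 4 on FPKM, were 5, 8 and 3 on TMM-scaled CPM, a scale added after the data were seen. Equal counts did not mean the same members. In DN against SHAM, Slc25a20 stood apart on TMM-scaled CPM in place of Slc25a42. In DN-SM against DN, Slc25a29 and Slc25a32 stood apart in place of Slc25a23 and Slc25a34.

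A replicate block called 0 carriers in each comparison; over all genes it called 317, 1 and 39, against 432, 1 and 85 without it. Among the related genes printed, it lost the Ucp3 call in DN-SM against SHAM (edgeR adjusted p = 0.0559). Same-numbered libraries of different groups did not deviate together: their correlations ran from -0.05 to 0.11 over 9 pairs, 1 of them above 0.1, and the own number gave the best correlation in 4 of 18 cases. The block is therefore not read as a pairing. With 3 libraries per group, 5 to 9 carriers per comparison had intervals reaching past 2-fold, so differences of that size could be missed, above all in carriers with few counts.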

Other observations

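Slc25a30, a relative of the uncoupling proteins, had a wide spread within each group. It was at 3.76, 3.92 and 2.07 FPKM in the SHAM libraries, 1.57, 2.51 and 6.48 in those of DN and 3.65, 7.22 and 2.73 in those of DN-SM. DN replicate 3 and DN-SM replicate 2 stood above the other 7 libraries, and the groups overlapped in all 3 comparisons. Slc25a14, of the same class, was at 2.49 FPKM in SHAM replicate 1 and at 0.73 to 1.64 in the other 8 libraries.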
